A study of Mus musculus with 4 samples.

Results

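The SLAM family is a group of immunoglobulin superfamily receptors on blood cells, and its mouse genes lie together on chromosome 1. The members taken were Slamf1, Slamf6, Slamf7, Slamf8, Slamf9, Cd48, Cd84, Cd244 and Ly9, through every probe set that the platform annotation pairs with exactly 1 of these symbols. All 9 genes were found, Cd244 under its newer symbol Cd244a, with 10 probe sets among 39720 that were fitted. Slamf6 had 2 probe sets and the other genes 1 each.

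Most SLAM receptors bind a copy of themselves on a neighbouring cell, while CD244 binds CD48. The cytoplasmic tails of SLAMF1, SLAMF6, SLAMF7, CD84, CD244 and Ly9 hold tyrosine switch motifs. Depending on the receptor, these recruit the small adaptor SAP, EAT-2 or both. Without an adaptor they can pass inhibitory signals through phosphatases. SLAMF8 and SLAMF9 have short tails without that motif, and CD48 is held in the membrane by a lipid anchor. On monocytes, macrophages and dendritic cells these receptors are known for roles in cell contact, phagocytosis and the killing of bacteria.

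The study cultured mouse Ly6C-high bone marrow monocytes, sorted from marrow pooled from 3 mice, with GM-CSF and interleukin 4 at 20 ng per ml each, a mixture that drives monocytes toward dendritic cells. The treated group received all-trans retinoic acid at 100 nM from the start of culture, and the control group received its solvent DMSO. RNA was taken at 24 h, and 250 ng of it was labelled with biotin for 1-colour Affymetrix whole-transcript arrays. Each treatment was read on 2 arrays, 4 in all. Both groups shared the cytokines and the sort, so the controls are cytokine-treated cells and not fresh monocytes. The labels do not say whether the 2 arrays of a group came from separate cultures, so p-values measure only the spread between these arrays, which may be technical.

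Median intensities over the fitted probe sets were 80.0 and 81.8 on the retinoic acid arrays and 81.3 and 81.2 on the DMSO arrays. The retinoic acid targets Cyp26a1, Rarb and Dhrs3, used to check the treatment labels, were all higher with retinoic acid (limma adjusted p = 0.00282, 0.00646 and 0.00826). All 6 monocyte markers examined, Ly6c2, Ccr2, Csf1r, Itgam, Lyz2 and Cd14, averaged above the dim guide. Of these 0 were called in limma and 3 were at an unadjusted p under 0.05: Itgam (log2 difference 0.66), Cd14 (0.29) and Ccr2 (-0.34). That limit was met by 13.4% of all fitted probe sets. The dim guide was 6.35 on the log2 scale. It was the 95th percentile of the means of 1405 olfactory and vomeronasal receptor probe sets, genes assumed to be mostly silent in monocytes. The deposited intensities never reach 0, and levels of different probe sets cannot be set against each other, because each probe set binds with its own strength.

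Retinoic acid lowered the RNA of Slamf7 and Slamf9, to 4.88-fold and 2.48-fold below DMSO. These were the only members that passed an adjusted p under 0.05 in limma, fitted and adjusted over all 39720 probe sets. Of the 10 member probe sets, 2 fell, 0 rose and 8 did not pass. In limma 0 were higher at an unadjusted p under 0.05 as well. Over all probe sets 1.19% were called lower and 0.904% higher. The median log2 difference, retinoic acid minus DMSO, was -0.45 over the member probe sets and -0.01 over all fitted probe sets. Differences ran from -2.29 for Slamf7 to 0.31 for Slamf8. In bulk RNA of this kind, fewer cells expressing a gene and less RNA per cell cannot be told apart.

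**Figure D1:**
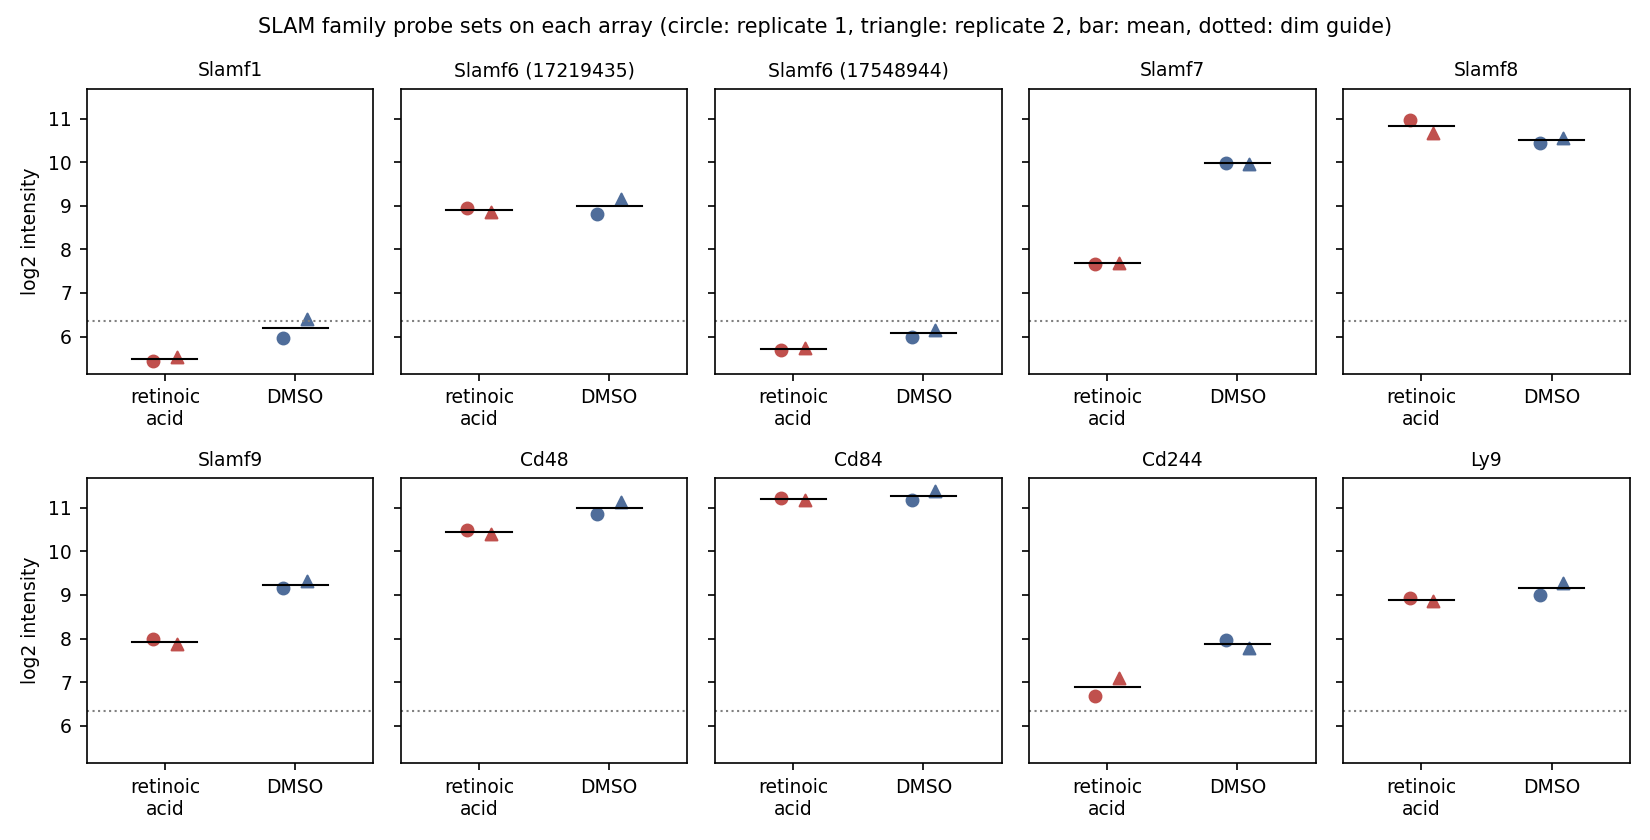
Log2 intensity (vertical axis) of each of the 10 SLAM family probe sets on the 2 retinoic acid arrays (red, left) and the 2 DMSO arrays (blue, right), with circles for replicate 1, triangles for replicate 2 and bars for group means. The Slamf7 and Slamf9 arrays with retinoic acid sit well below those with DMSO, whereas Cd84 and the brighter Slamf6 probe set overlap between the groups. The dotted line is the dim guide of 6.35.

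SLAMF7, also called CRACC or CS1, binds itself and is known for promoting the uptake of blood-derived tumour cells by macrophages and for activating natural killer cells. Probe set 17229782 of Slamf7 read 7.67 and 7.69 (log2 intensity) with retinoic acid, against 9.98 and 9.95 with DMSO. On the linear scale these were intensities of 203.8 and 206.3 with retinoic acid and 1012.5 and 988.8 with DMSO. The groups lay 2.26 log2 units apart at their nearest arrays, while the replicates differed by 0.02 with retinoic acid and by 0.03 with DMSO. The group means were 7.68 ± 0.01 with retinoic acid and 9.97 ± 0.02 with DMSO (SD, n = 2 each). The log2 difference was -2.29 ± 0.08 (limma's moderated SE), with a 95% interval of -2.48 to -2.09 and an adjusted p of 0.00261. This was the 30th lowest difference and the 19th smallest p among the fitted probe sets. The difference stayed between -2.30 and -2.27 when any 1 array was left out, but without retinoic acid replicate 1 the call was lost (limma adjusted p = 0.0535). It was also lost when the probe sets with one constant value on all arrays were kept in the fit (adjusted p = 0.0535). In that fit 0 probe sets were called, and 0.0535 was the smallest limma adjusted p of any probe set.

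SLAMF9 is a short-tailed member found on myeloid cells, including dendritic cells. Its gene, probe set 17219546, read 7.99 and 7.87 (log2 intensity) with retinoic acid, against 9.16 and 9.31 with DMSO. The linear intensities were 253.7 and 233.2 with retinoic acid and 572.5 and 635.0 with DMSO. Both retinoic acid arrays were lower than both DMSO arrays, with 1.17 log2 units between the nearest arrays. Means were 7.93 ± 0.09 with retinoic acid and 9.24 ± 0.11 with DMSO (SD, n = 2 each). The log2 difference was -1.31 ± 0.10 (SE), with a 95% interval of -1.56 to -1.06 and a limma adjusted p of 0.0115. The call was lost whichever array was left out (limma adjusted p from 0.0846 to 0.101, differences from -1.38 to -1.23) and with the constant probe sets kept (0.0789).

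Sequence upstream of the genes that fell is shown with that of Slamf8, whose gene shares a block with Slamf9 and whose positive difference did not pass, and of Cd84, whose arrays overlapped. Each run is the 250 bases before the start that the RefSeq promoter table of assembly GRCm38.p6 takes for the gene, written on the gene's own strand. The windows are chr1:171649000-171649249 (minus strand), chr1:172475110-172475359 (plus), chr1:172590569-172590818 (minus) and chr1:171839447-171839696 (plus). In Slamf7 and Slamf9 the table's start lies 4038 and 16791 bases inside the annotated gene, and in Slamf8 305 bases inside, so their outermost start is another one. Capitals mark matches to the motifs described after the sequences.
Slamf7: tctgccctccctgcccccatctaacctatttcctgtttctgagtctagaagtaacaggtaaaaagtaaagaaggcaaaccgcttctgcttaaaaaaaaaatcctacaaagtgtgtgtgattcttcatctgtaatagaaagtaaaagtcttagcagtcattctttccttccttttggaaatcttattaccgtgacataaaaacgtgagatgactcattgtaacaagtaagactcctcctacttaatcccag
Slamf9: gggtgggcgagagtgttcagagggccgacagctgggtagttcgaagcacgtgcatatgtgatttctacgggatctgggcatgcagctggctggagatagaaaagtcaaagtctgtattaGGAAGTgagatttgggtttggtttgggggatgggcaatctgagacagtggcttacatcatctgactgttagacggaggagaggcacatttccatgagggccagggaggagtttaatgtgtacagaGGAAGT
Slamf8: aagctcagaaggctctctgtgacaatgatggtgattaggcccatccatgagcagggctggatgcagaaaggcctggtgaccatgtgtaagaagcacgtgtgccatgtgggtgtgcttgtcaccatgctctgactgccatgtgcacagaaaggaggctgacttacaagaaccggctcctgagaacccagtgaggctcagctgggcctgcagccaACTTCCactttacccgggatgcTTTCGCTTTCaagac
Cd84: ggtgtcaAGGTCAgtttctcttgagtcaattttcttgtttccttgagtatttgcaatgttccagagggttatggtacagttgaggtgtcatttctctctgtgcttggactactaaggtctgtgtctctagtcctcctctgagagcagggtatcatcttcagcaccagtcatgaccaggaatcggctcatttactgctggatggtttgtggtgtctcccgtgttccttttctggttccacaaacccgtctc

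The motifs were searched on both strands of these windows for the 8 members in the table, all but Ly9, and in 32851 windows in all. The core bound by retinoic acid receptors and other nuclear receptors, AGGTCA, was in 1 of 8 member windows, that of Cd84, against 14.0% of all windows. The core of Ets factors, GGAAGT, was in those of Slamf9, at 2 places, and of Slamf8, against 19.7% of all windows. The interferon response letters, GAAA and GAAA with 2 bases between them, were in that of Slamf8, against 2.98% of all windows. The letters TTC and GAA with 4 bases between them, bound by STAT6, the factor that interleukin 4 activates, were in the window of Slamf1, against 5.85% of all windows. The Ets-IRF composite, GGAA and GAAA with 2 bases between them, bound by PU.1 with IRF4 or IRF8, and TATAAA were in 0 of the 8, against 2.3% and 12.4% of all windows. The Slamf7 window thus held none of the 6 motifs searched, which says only that these letters are not in these bases.

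CD244, also called 2B4, is the receptor for CD48 and is best known from natural killer cells. Cd244 read 6.68 and 7.09 (log2 intensity) with retinoic acid, against 7.97 and 7.78 with DMSO. The groups did not overlap, and the retinoic acid arrays lay closer to the dim guide. The log2 difference was -0.98 ± 0.16 (SE), 1.98-fold lower, with a 95% interval of -1.41 to -0.56, and it did not pass (limma adjusted p = 0.077). It passed when only probe sets with 1 gene symbol were fitted (adjusted p = 0.0101) and when only probe sets brighter than the median were fitted (0.0403).

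CD48, the lipid-anchored ligand of CD244 and, in mice, of CD2, is found on most white blood cells. Cd48 read 10.50 and 10.39 (log2 intensity) with retinoic acid, against 10.85 and 11.13 with DMSO. The groups did not overlap, and the DMSO arrays were 0.29 apart. The difference of -0.55 ± 0.12 (log2, SE; 95% interval -0.87 to -0.23) did not pass (limma adjusted p = 0.15), and it passed among probe sets with 1 gene symbol (0.0365). Cd2, the other partner of CD48, averaged 5.99 with retinoic acid and 5.84 with DMSO, under the dim guide in both groups.

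SLAMF1, also called CD150, is a self-binding receptor that also recognises some bacteria, and in mice it marks blood stem cells. Slamf1 read 5.44 and 5.52 (log2 intensity) with retinoic acid, against 5.97 and 6.41 with DMSO, and 1 of the 4 arrays, DMSO replicate 2, exceeded the dim guide. Its difference of -0.71 ± 0.16 (log2, SE; 95% interval -1.13 to -0.28) did not pass (limma adjusted p = 0.156). It too passed among probe sets with 1 gene symbol (0.0351). At this level the values do not show how much of the gene's RNA was present.

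SLAMF6, or Ly108, and Ly9 are self-binding receptors studied mainly in lymphocytes. The brighter Slamf6 probe set, 17219435, read 8.95 and 8.86 (log2 intensity) with retinoic acid and 8.82 and 9.15 with DMSO, so the groups overlapped. Its difference was -0.08 ± 0.13 (log2, SE; 95% interval -0.43 to 0.27; limma adjusted p = 0.86). The other Slamf6 probe set, 17548944, was under the dim guide on all arrays, at 5.70 and 5.73 with retinoic acid and 6.0 and 6.14 with DMSO. Its difference of -0.36 ± 0.09 (log2, SE) did not pass either (limma adjusted p = 0.179), so neither probe set of this gene was called. Ly9 read 8.92 and 8.86 with retinoic acid, against 9.01 and 9.28 with DMSO, a narrow separation of 0.09 log2 units. The Ly9 difference was -0.25 ± 0.12 (log2, SE; 95% interval -0.56 to 0.05; limma adjusted p = 0.455), and it was -0.39 without DMSO replicate 1 and -0.12 without DMSO replicate 2.

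CD84 is a self-binding receptor of myeloid cells, platelets and lymphocytes. Cd84 read 11.22 and 11.17 (log2 intensity) with retinoic acid and 11.18 and 11.38 with DMSO, so the groups overlapped. The difference was -0.09 ± 0.10 (log2, SE; limma adjusted p = 0.786), and its 95% interval of -0.35 to 0.17 leaves out changes as large as those of Slamf7 and Slamf9. SLAMF8, also called BLAME, is a short-tailed receptor of myeloid cells known for restraining the phagocyte oxidase. Slamf8 read 10.96 and 10.67 with retinoic acid, against 10.45 and 10.56 with DMSO, and it was the 1 member probe set with both retinoic acid arrays above both DMSO arrays. Its difference of 0.31 ± 0.13 (log2, SE; 95% interval -0.02 to 0.64) did not pass (limma adjusted p = 0.403). Leaving out replicate 1 of the treated arrays gave 0.16, and leaving out replicate 2 gave 0.46.

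**Figure D2:**
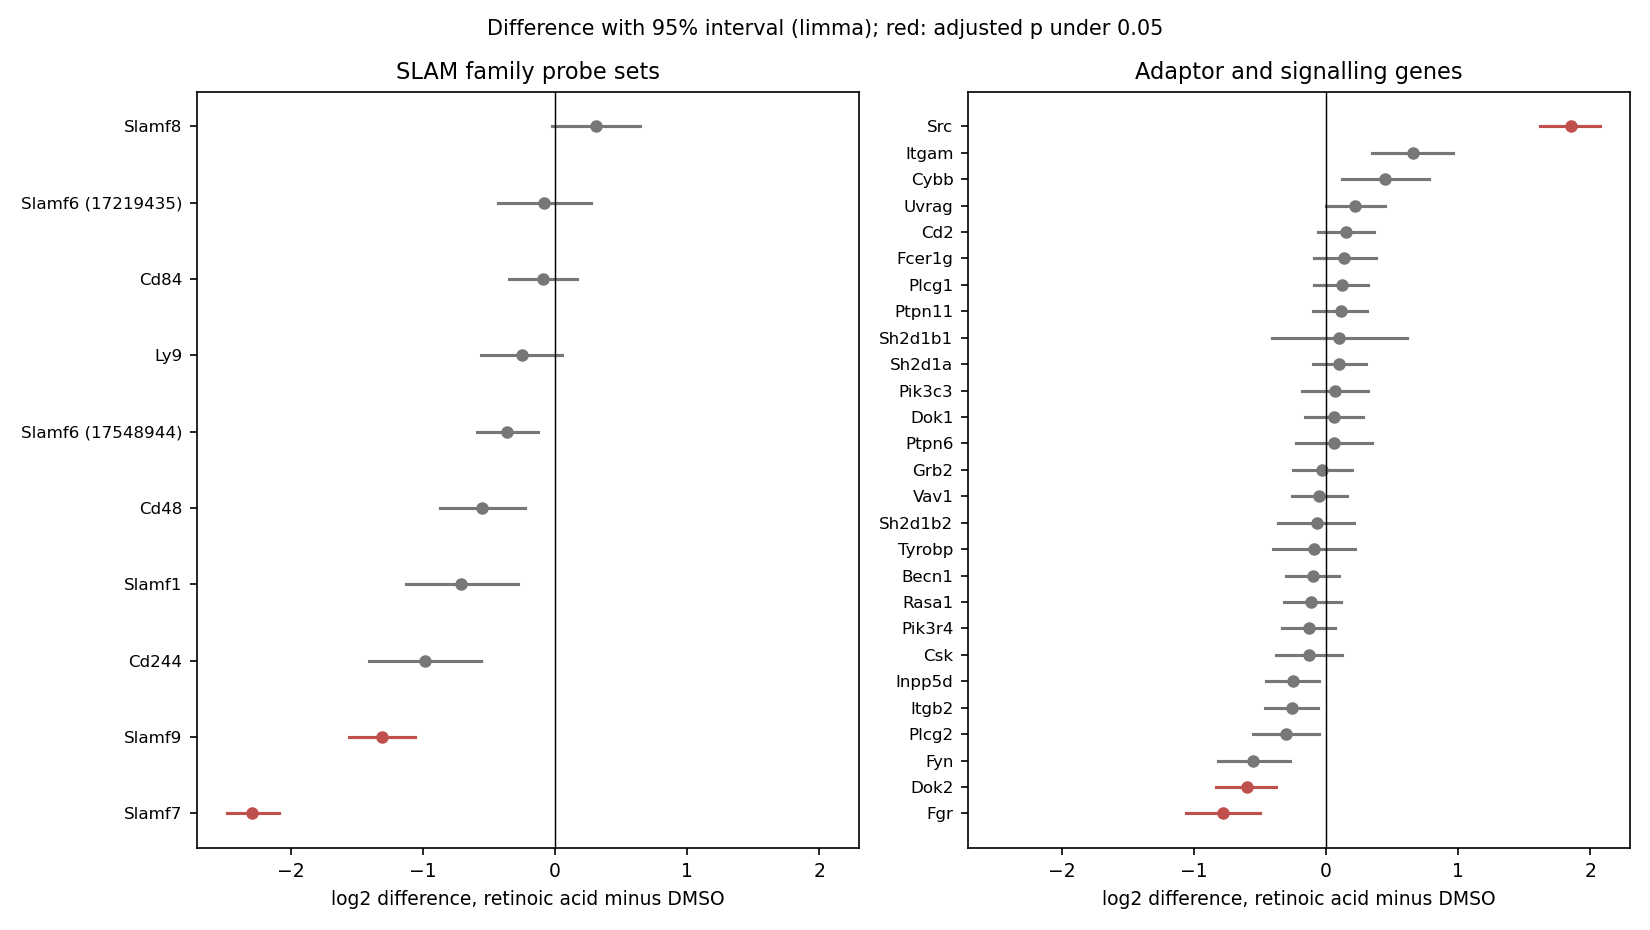
Log2 difference, retinoic acid minus DMSO (horizontal axis), with limma's 95% interval for the 10 SLAM family probe sets (left) and 27 adaptor and signalling genes (right), in red where the adjusted p was under 0.05. Slamf7 (-2.29) and Slamf9 (-1.31) stand out to the left, and Src (1.85) to the right.

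Both retinoic acid arrays were below both DMSO arrays in 7 of the 10 member probe sets and above them in 1, while 2 overlapped. Over all fitted probe sets the shares were 23.3% below and 20.7% above. Of the 7, 5 did not pass limma's threshold. At an unadjusted p under 0.05 there were 6 member probe sets, all lower, where all fitted probe sets had 13.4%. The DMSO replicates differed in the same direction in most members. In 8 of the 10 member probe sets DMSO replicate 2 was above DMSO replicate 1, the exceptions being Slamf7 and Cd244, whereas this held for 51.0% of all probe sets. The part of this spread in the smaller member differences was not tested.

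**Figure D3:**
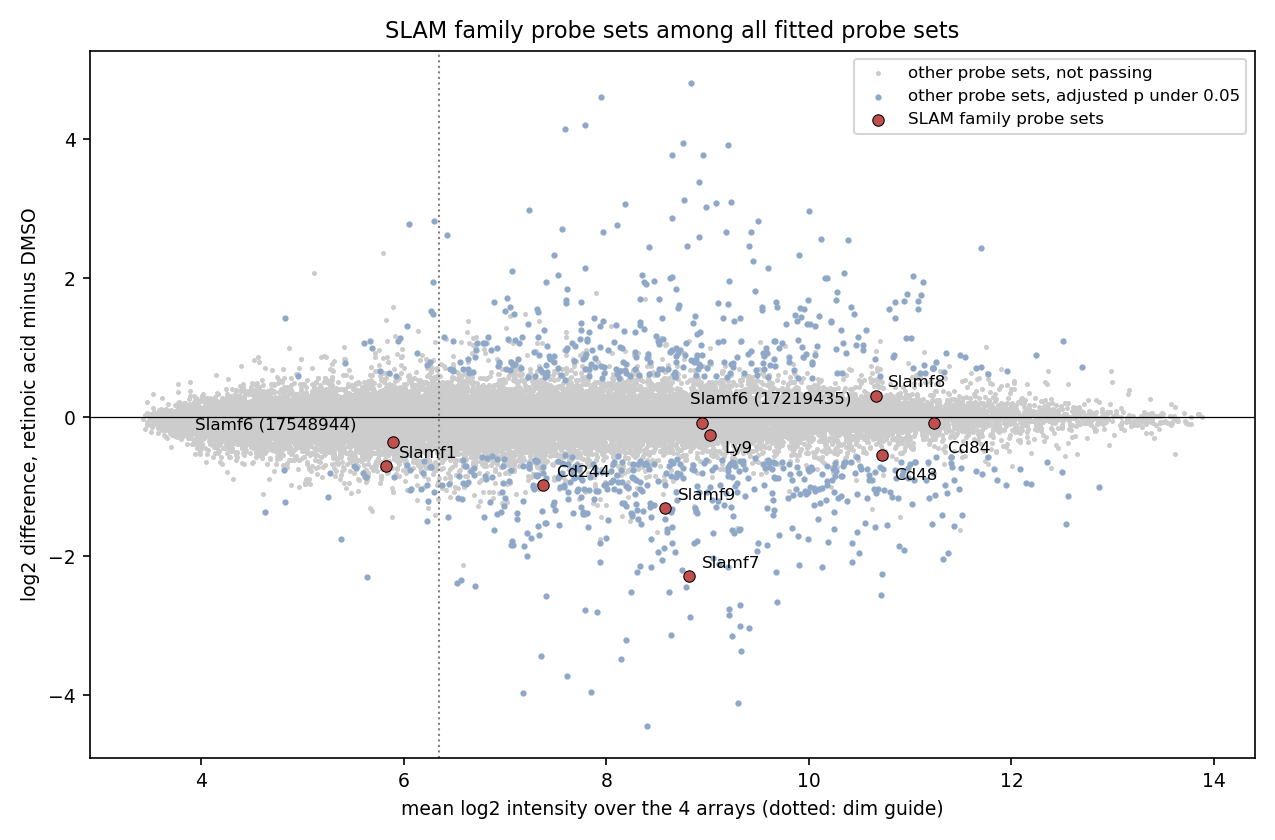
Log2 difference, retinoic acid minus DMSO (vertical axis), against the mean log2 intensity over the 4 arrays (horizontal axis) for all 39720 fitted probe sets, with those at an adjusted p under 0.05 in blue and the 10 SLAM family probe sets in red. Slamf7 and Slamf9 lie among the probe sets called lower, and Slamf1 and the dimmer Slamf6 probe set lie left of the dim guide of 6.35.

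The genes most like the members that fell were sought among 22180 genes by the Euclidean distance between log2 values centred on each gene's mean over the 4 arrays. Nearest to Slamf7 were Rasgef1b, a guanine nucleotide exchange factor (distance 0.10), Olfr111, annotated as an olfactory receptor (0.13), and Il12rb2, a subunit of the interleukin 12 receptor (0.14). Rasgef1b read 8.61 and 8.53 with retinoic acid and 10.84 and 10.76 with DMSO. Olfr111 read 4.39 and 4.58 with retinoic acid and 6.77 and 6.81 with DMSO, and was called lower (limma adjusted p = 0.00431). It is 1 of the olfactory receptor genes behind the dim guide of 6.35, and its DMSO arrays exceeded that guide. Nearest to Slamf9 were Ppef2, a protein phosphatase gene (0.07), Fcgrt, the neonatal Fc receptor (0.11), and Lat2, a signalling adaptor of myeloid and B cells (0.13). Fcgrt averaged 9.78 ± 0.07 with retinoic acid and 10.98 ± 0.09 with DMSO (log2 intensity, SD, n = 2 each). With 4 arrays in 2 groups, such likeness mostly means a difference of the same size.

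The member genes form 2 blocks on chromosome 1 in the RefSeq gene order. The first runs Cd244, Ly9, Slamf7, Cd48, Slamf1, Cd84 and Slamf6, and the second has Slamf9 and Slamf8 at its ends. Slamf7 thus lies between Ly9 (-0.25) and Cd48 (-0.55), neither of which passed. Of 8 other genes inside the first block, 0 were measured under their own symbol. In the second block 5 other genes were measured under their own name, and none passed in limma, with 2 at an unadjusted p under 0.05 and differences from -0.56 to 0.29. Between the blocks 13 genes were measured and none passed in limma, with 3 at an unadjusted p under 0.05 and differences from -0.63 to 0.30. The share of all fitted probe sets at that unadjusted p was 13.4%.

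Among the adaptors, kinases, phosphatases and partners through which the family is known to act, 27 genes were analysed. Of the 27, 1 rose, 2 fell and 24 did not pass, with a median log2 difference of -0.03. Of all 22180 genes, each taken at its brightest probe set, 1.28% were called higher and 1.79% lower. At an unadjusted p under 0.05 in limma there were 9 of the 27, 3 higher and 6 lower, against 13.4% of all fitted probe sets. That share includes probe sets without a gene name. When only probe sets with 1 gene symbol were fitted, there were 10 of the 27, against 4328 of 23521 probe sets. The gene called higher was Src, a tyrosine kinase, at 9.57 and 9.67 (log2 intensity) with retinoic acid, against 7.72 and 7.82 with DMSO. The groups were far apart, and Src was 3.60-fold higher (log2 difference 1.85 ± 0.09, SE; limma adjusted p = 0.00488).

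The genes of that list called lower were Fgr, a Src family kinase of myeloid cells, and Dok2, an adaptor that dampens Ras signalling. Fgr read 9.96 and 9.80 (log2 intensity) with retinoic acid, against 10.74 and 10.57 with DMSO (difference -0.78 ± 0.11, SE; limma adjusted p = 0.0471). Dok2 read 8.34 and 8.46 with retinoic acid, against 9.02 and 8.98 with DMSO (difference -0.60 ± 0.09; adjusted p = 0.0498). Both lie close to the threshold. Whichever array was left out, 0 of the 27 genes passed in limma, with 5 to 7 at an unadjusted p under 0.05, and the adjusted p of Src was then 0.056 to 0.0633.

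The adaptors themselves were not called. Sh2d1a, which encodes SAP, averaged 5.95 with retinoic acid and 5.85 with DMSO (log2 intensity), under the dim guide in both groups. Sh2d1b1, which encodes EAT-2, averaged 7.61 ± 0.03 with retinoic acid and 7.51 ± 0.39 with DMSO (SD, n = 2 each), and its difference of 0.10 ± 0.19 (SE) did not pass (limma adjusted p = 0.882). Fyn, the kinase that SAP brings to receptors it binds, read 8.83 and 8.76 with retinoic acid, against 9.23 and 9.45 with DMSO. Its difference of -0.55 ± 0.10 (log2, SE) did not pass (limma adjusted p = 0.105). It passed in 1 of 10 alternative settings (limma adjusted p = 0.0216). Ptpn6, the phosphatase SHP-1, averaged 12.20 with retinoic acid and 12.14 with DMSO and differed by 0.06 ± 0.11 (limma adjusted p = 0.873).

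SLAM receptors are used by many blood cells, so markers of cells other than monocytes were examined beside these results. For comparison, 13.4% of all fitted probe sets were at an unadjusted p under 0.05 in limma. Among T cell markers 0 of 5 were called in limma (1 at an unadjusted p under 0.05), with summed intensities of 320 and 339 with retinoic acid and 334 and 308 with DMSO. Of NK cell markers 0 of 5 were called (0 at an unadjusted p under 0.05), with sums of 402 and 407 with retinoic acid and 380 and 381 with DMSO, and 4 of the 5, including Ncr1 and Klrb1c, averaged under the dim guide. Of the T cell markers, 3 of the 5 averaged under the dim guide, and Cd3g differed by -0.24 (log2; limma adjusted p = 0.276). The part of T and NK cells in the members' differences was not tested. Among B cell markers 1 of 5 was called in limma: Cd79b, a subunit of the B cell receptor, was higher with retinoic acid (difference 0.65 ± 0.09, log2, SE; adjusted p = 0.0471), a call lost whichever array was left out (0.144 to 0.293). The B cell sums were 439 and 427 with retinoic acid and 354 and 348 with DMSO, and 4 of the 5 markers averaged under the dim guide.

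Markers of 4 other cell types were each called in 0 genes by limma. Plasmacytoid dendritic cell markers (4 measured, 1 at an unadjusted p under 0.05) summed to 563 and 570 with retinoic acid and 702 and 628 with DMSO, and Siglech averaged under the dim guide in both groups. Stem and progenitor cell markers (4 measured, 1 at an unadjusted p under 0.05) summed to 1058 and 1035 with retinoic acid and 1233 and 1304 with DMSO. All 4 averaged above the dim guide, and the sum was lower mainly through Cd34 (log2 difference -0.50; limma adjusted p = 0.119). Both retinoic acid arrays were below both DMSO arrays for 3 of the 4, Cd34, Kit (-0.07) and Hlf (-0.10), against 23.3% of all fitted probe sets. Mast cell and basophil markers (5 measured, 1 at an unadjusted p under 0.05) summed to 305 and 264 with retinoic acid and 359 and 314 with DMSO. The plasmacytoid sum was lower through Tcf4 (log2 difference -0.44), while Spib (0.37) and Ccr9 (0.20) had positive differences and the list's median difference was 0.09. The median difference was -0.08 over the stem and progenitor markers and -0.18 over the mast cell and basophil markers. A sum is weighted to its brightest probe sets, and the part of these cells in the members' differences was not tested. Neutrophil markers (5 measured, 0 at an unadjusted p under 0.05) were above the dim guide, with sums of 11026 and 10978 with retinoic acid and 10705 and 11479 with DMSO.

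**Figure D4:**
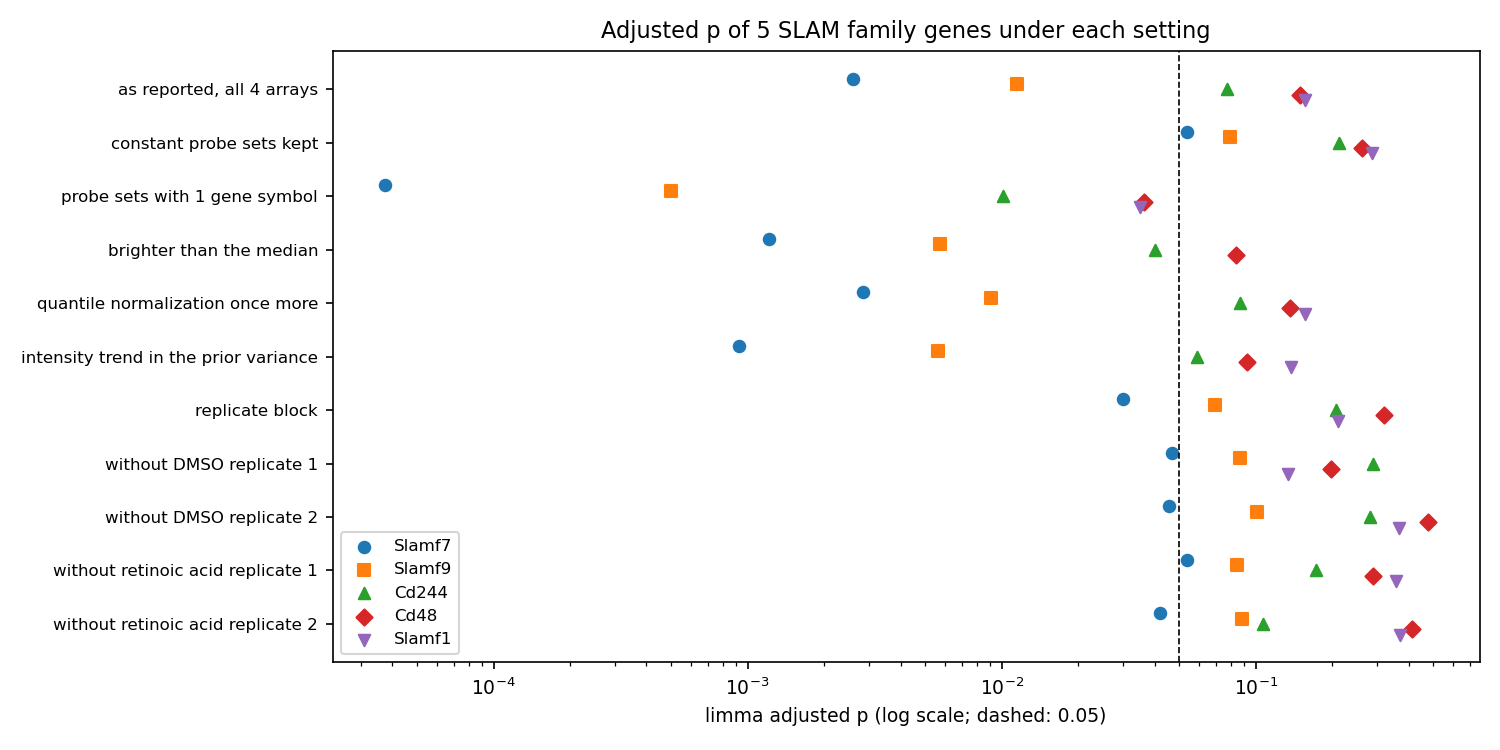
Limma adjusted p (horizontal axis, log scale, dashed line at 0.05) of Slamf7, Slamf9, Cd244, Cd48 and Slamf1 as reported and under 10 alternative settings (rows), with no point for Slamf1 among probe sets brighter than the median, where it was not fitted. Slamf7 is left of the line or just beyond it (highest 0.0535), Slamf9 is right of it whenever an array is left out, and Cd48 and Slamf1 are left of it only among probe sets with 1 gene symbol.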

How the data were processed

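Each array's deposited values are intensities, 1 for each probe set, made by the authors with Affymetrix Expression Console and RMA per the submitters' processing notes. RMA corrects background, equalises the arrays' distributions and summarises probes, which understates differences of dim genes. Versions and the genome build are not given in the sources used here. The values, 4.78 to 15452, are on a linear scale and were transformed to log2 here without further normalization. Of 41345 probe sets, 1625 held one constant value on all arrays, none with an annotated gene, and were left out. Genes were named through the platform annotation (23521 probe sets with 1 symbol, 1814 with several, 16010 unnamed here). RefSeq tables of assembly GRCm38.p6 gave synonyms, gene order and sequences.

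The comparison of retinoic acid with DMSO used limma 3.58.1 in R 4.3.3 (lmFit, eBayes, two-sided, no covariates, all 4 arrays), with Benjamini-Hochberg adjustment over all fitted probe sets. The smallest p an exact permutation test of 2 against 2 can give is 0.333, so p-values rest on limma's model. The fit was also run on simulated data, but these were drawn from limma's own model. They therefore cannot show whether that model holds for these arrays. Every member probe set was named, as was every gene of the signalling list that passed, with Sh2d1a, Sh2d1b1, Fyn and Ptpn6. The members, the lists and the handling of constant probe sets were chosen with earlier results of these data known. The alternatives were the constant probe sets kept, filters on annotation and on dim probe sets, a further quantile normalization, an intensity trend, blocks and leaving out each array. The number of arrays limits the precision.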

Additional observations from a re-analysis of the deposited data

How the results depend on the processing

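Slamf7 and Slamf9 kept their sign in all 10 alternative settings, and passed in 8 and 4 of them. With the constant probe sets kept, limma called 0 probe sets, member probe sets and signalling genes, higher or lower (6260 probe sets, 6 member probe sets and 12 signalling genes at an unadjusted p under 0.05). The prior degrees of freedom were then 0.898 in place of 2.76, and Slamf7 (-2.29) and Slamf9 (-1.31) no longer passed. Fitting only probe sets with 1 gene symbol called 757 higher and 879 lower, with 5 member probe sets lower and 2 signalling genes higher; Slamf1 (-0.71), Cd48 (-0.55) and Cd244 (-0.98) then passed. Among probe sets brighter than the median, 545 were higher, Cd244 (-0.98) passed and 2 signalling genes were higher. The intensity trend also called 2 signalling genes higher, and quantile normalization called 1 signalling gene lower. Both filters test fewer features. The cause of these moves, with the filters and with the other settings, was not tested.

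The groups share replicate numbers. The deviations of same-numbered arrays from their group means had a weak negative correlation (r = -0.25 over probe sets), and the labels do not pair these arrays. With the replicate number as a block, 73 probe sets were higher and 88 lower, 1 member probe set and 0 signalling genes were lower, and Slamf9 (-1.31) did not pass (limma adjusted p = 0.0692). With the crossed pairing as a block, an alternative chosen after seeing the data, 194 were higher and 263 lower. Of the member probe sets, 2 were then lower and 0 higher.

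Without 1 array, 12 to 30 probe sets were higher and 13 to 25 lower, with 0 to 1 member probe sets lower and 0 signalling genes in either direction. Differences ran from -2.30 to -2.27 for Slamf7 and from -1.38 to -1.23 for Slamf9. Without DMSO replicate 2 the differences of Slamf6 (probe set 17219435) and Cd84 turned to 0.08 and 0.01. Their ranges were -0.25 to 0.08 and -0.18 to 0.01, and neither passed in any setting. Slamf1 and the dimmer Slamf6 probe set are too close to background to show the size of their differences.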
